A study of Mus musculus with 4 samples.

Results

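CD8 T cells from B16-F10 melanoma tumors were compared between cells sorted as positive (ZsG+) and negative (ZsG-) for ZsGreen, a fluorescent protein made by the tumor cells, in 2 separate sorts of tumor-infiltrating leukocytes (TILs). They were selected by their UMIs, the molecules counted per gene and cell. A cell had at least 1 UMI of *Cd8a*, none of *Foxp3*, at least 3 of *Cd3d*, *Cd3e* and *Cd3g* together, and at most 3 of the macrophage genes *C1qa*, *C1qb* and *Lyz2* together. This gave 1659 of 14137 cell barcodes: 820 ZsG- and 68 ZsG+ cells in the sort of all CD45+ TILs (CD45 sort), and 372 ZsG- and 399 ZsG+ cells in the sort of CD45+ TCRb+ TILs (T cell sort).

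The tumors grew subcutaneously in wild-type C57BL/6 mice from 1 clone of B16-F10 cells, a mouse melanoma line, which made cytoplasmic ZsG under doxycycline (dox). All mice drank dox for 4 days and TILs were taken on day 8, so both gates shared the tumor line, the host and dox. Each gate gave 1 droplet library, with no replicate, so the spread between mice or tumors was not measured and no test between gates was made. By the study's own account the ZsG+ gate of the CD45 sort took bright cells, and most ZsG-positive lymphocytes of that sort fell in the gate called negative, which limits it as a source of T cells without ZsG.

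CD8 T cells recognize tumor peptides on MHC class I and kill the cells that present them. In a tumor they pass from a *Tcf7*-expressing precursor state, through dividing effector cells, to an exhausted state that carries inhibitory receptors such as PD-1 and LAG-3. A signal through the T cell receptor (TCR) makes them transcribe cytokines and chemokines, among them *Ifng*, *Ccl3*, *Ccl4*, *Xcl1* and *Ccl1*. The question addressed here was which genes differed between ZsG+ and ZsG- CD8 T cells, and whether both sorts gave the same differences.

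The promoters of 6 genes whose gate ratios were alike or unlike in the sorts are shown first. *Ccl1* was higher and *Gzma* and *Bcl2* were lower in ZsG+ cells of both sorts, while *Ifng*, *Ccl3* and *Xcl1* were far higher in ZsG+ cells of the T cell sort alone. In the CD45 sort *Xcl1* was higher in ZsG+ cells by less than 2-fold, and *Ifng* and *Ccl3* were lower. Each sequence is the 250 bases before the RefSeq start on GRCm38.p6, 5′ to 3′ on the strand of the gene. *Ccl1* lies at chr11:82179813-82180062 (minus strand), *Gzma* at chr13:113100982-113101231 (minus), *Bcl2* at chr1:106714291-106714540 (minus), *Ifng* at chr10:118440796-118441045 (plus), *Ccl3* at chr11:83649379-83649628 (minus) and *Xcl1* at chr1:164935523-164935772 (minus). Capitals mark matches to the motifs searched on both strands, which were TGANTCA (AP-1), GGAAAA (the core bound by NFAT, a factor that TCR signals activate), TGACGTCA (CRE) and TATAAA (the TATA box).
Ccl1: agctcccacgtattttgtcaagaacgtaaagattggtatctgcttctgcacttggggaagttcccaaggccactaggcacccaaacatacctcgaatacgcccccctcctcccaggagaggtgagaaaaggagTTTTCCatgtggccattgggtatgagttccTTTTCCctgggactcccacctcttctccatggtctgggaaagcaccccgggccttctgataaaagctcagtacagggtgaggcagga
Gzma: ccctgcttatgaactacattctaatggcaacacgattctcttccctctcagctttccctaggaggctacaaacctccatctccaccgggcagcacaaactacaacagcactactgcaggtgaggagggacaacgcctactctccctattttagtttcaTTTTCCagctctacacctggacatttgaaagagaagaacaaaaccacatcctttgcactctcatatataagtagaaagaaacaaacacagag
Bcl2: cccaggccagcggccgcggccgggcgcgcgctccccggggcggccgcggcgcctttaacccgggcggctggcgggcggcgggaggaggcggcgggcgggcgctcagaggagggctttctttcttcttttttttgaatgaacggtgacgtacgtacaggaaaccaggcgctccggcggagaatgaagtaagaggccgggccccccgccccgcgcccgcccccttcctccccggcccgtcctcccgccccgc
Ifng: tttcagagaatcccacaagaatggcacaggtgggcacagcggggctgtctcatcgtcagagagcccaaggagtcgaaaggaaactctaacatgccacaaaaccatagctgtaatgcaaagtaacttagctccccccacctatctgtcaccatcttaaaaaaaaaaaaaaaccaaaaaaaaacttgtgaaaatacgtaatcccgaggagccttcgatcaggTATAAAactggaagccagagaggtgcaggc
Ccl3: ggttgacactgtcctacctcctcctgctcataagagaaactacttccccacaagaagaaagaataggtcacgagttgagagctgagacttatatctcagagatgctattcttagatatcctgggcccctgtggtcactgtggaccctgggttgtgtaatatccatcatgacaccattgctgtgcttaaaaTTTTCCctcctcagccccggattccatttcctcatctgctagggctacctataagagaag
Xcl1: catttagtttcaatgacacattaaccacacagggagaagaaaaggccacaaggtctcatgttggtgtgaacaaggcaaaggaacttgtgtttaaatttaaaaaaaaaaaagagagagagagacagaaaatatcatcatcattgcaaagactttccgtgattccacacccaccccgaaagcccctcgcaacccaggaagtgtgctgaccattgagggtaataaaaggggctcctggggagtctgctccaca

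GGAAAA was found 2 times for *Ccl1* and 1 time each for *Ccl3* and *Gzma*, each time on the opposite strand (TTTTCC), and TATAAA 1 time for *Ifng*. Over the same window of 27025 promoters, 20.6% held GGAAAA, 13.0% TATAAA, 6.87% TGANTCA and 1.62% TGACGTCA. *Ccl1* and *Gzma*, which differed between the gates in opposite directions, both held GGAAAA. A match describes letters and not a bound factor, and the start that GENCODE gives for *Ccl1* lies 125878 bases further upstream.

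The CD8 cells were 17.5% (exact binomial 95% interval 16.4 to 18.6) and 1.65% (1.28 to 2.09) of the filtered cells in ZsG- and ZsG+ of the CD45 sort, and 39.2% (36.1 to 42.4) and 21.2% (19.4 to 23.2) in the T cell sort. CD8 cells of different libraries shared no barcode, while each pair of libraries shared 1 to 6 of all cell barcodes. Their summed UMIs were 14949431, 1091044, 3035266 and 4085158 in CD45 ZsG-, CD45 ZsG+, T cell ZsG- and T cell ZsG+, the order used for all 4 values below. Levels are UMIs of a gene per 1000000 UMIs of the summed CD8 cells (CPM), and 1 UMI was worth 0.0669, 0.917, 0.329 and 0.245 CPM. Median UMIs per CD8 cell were 13686.5, 14637, 6593 and 7342. The CD45 matrix carries Cell Ranger version 7.0.0 and the T cell matrix 6.1.2, and they list 32285 and 31053 genes. A difference in level between the sorts therefore cannot be told apart from their processing.

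The labels of the T cell sort contradicted each other. The name of its matrix puts ZsG+ first with the library of 2396 barcodes, which was followed, while the library names give the opposite order. If the order were reversed, every ratio of the T cell sort would change its sign, as would the correlation between the sorts, and *Ccl1*, *Gzma* and *Bcl2* would differ in opposite directions in the sorts.

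The limit on macrophage UMIs weighed unequally on the libraries. Of cells that met the other limits it removed 21 (2.50%), 126 (64.9%), 14 (3.63%) and 51 (11.3%). At its edge, 24 of the 68 CD45 ZsG+ cells had exactly 3 such UMIs and 11 cells with 4 were left out, against 7 or fewer on either side in each other library. At the CD3 limit, no library had more than 1 cell with exactly 3 UMIs or more than 3 cells left out with 2. Of the CD45 ZsG+ cells 13.2% had no UMI of the 3 macrophage genes, against 76.7% to 92.2% in the other libraries.

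The T cell markers fitted the label, while some markers of other cells were unequal between the gates. CD8 cells held 3520.5 to 5204 CPM of 10 T cell genes that the selection did not use, among them *Cd8b1*, *Trac* and *Lck*, with none at 0, and the CD4 T cell gene *Cd4* and the B cell gene *Cd79a* were each at 0 to 3.92 CPM. Together, the macrophage genes *Csf1r*, *Adgre1*, *Apoe* and *C1qc* reached 2.41, 46.7, 27.3 and 24.97 CPM, where myeloid cells of the same libraries held 2025 to 3869 CPM. The NK cell genes *Ncr1* and *Klrb1c* summed to 21.1, 3.67, 6.92 and 8.32 CPM in CD8 cells. The dendritic cell genes *Xcr1*, *Clec9a* and *Siglech* summed to 7.96, 0.917, 0.329 and 14.2 CPM, against 32.3 to 60.4 in myeloid cells. The melanoma genes *Pmel*, *Mlana*, *Tyrp1* and *Dct* summed to 0.468, 2.75, 2.97 and 10.8 CPM, against 0.800, 21.0, 21.2 and 22.2 in myeloid cells. Myeloid cells here are the 276, 3216, 82 and 256 cells over the macrophage limit with no UMI of the CD3 genes. NK cells were not excluded from them, and *Ncr1* and *Klrb1c* summed to 53.6, 5.74, 0 and 2.63 CPM there.

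For each gene the log2 ratio of CPM in ZsG+ over ZsG- was taken in each sort, over 1377 genes with a mean of at least 100 CPM. The genes that agree or disagree were chosen by these same ratios, so their values are a description. Intervals are 95% intervals of the counts and cover counting error only. At least 2-fold, 3 genes were higher (0.218%) and 2 lower (0.145%) in ZsG+ in the CD45 sort, and 15 were higher (1.09%) and 6 lower (0.436%) in the T cell sort. *Ccl1* was the 1 gene at least 2-fold higher in both sorts (0.0726%), and *Gzma* and *Bcl2* were the 2 genes at least 2-fold lower in both (0.145%). A further 6 genes (0.436%) had ratios of opposite sign that lay at least 2-fold apart. Of these, *Ifng*, *Ccl3*, *Ccl4*, *Lag3* and *Cd160* had the higher ratio in the T cell sort and *Ikzf2* in the CD45 sort, and none was past 2-fold in both.

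**Figure D1:**
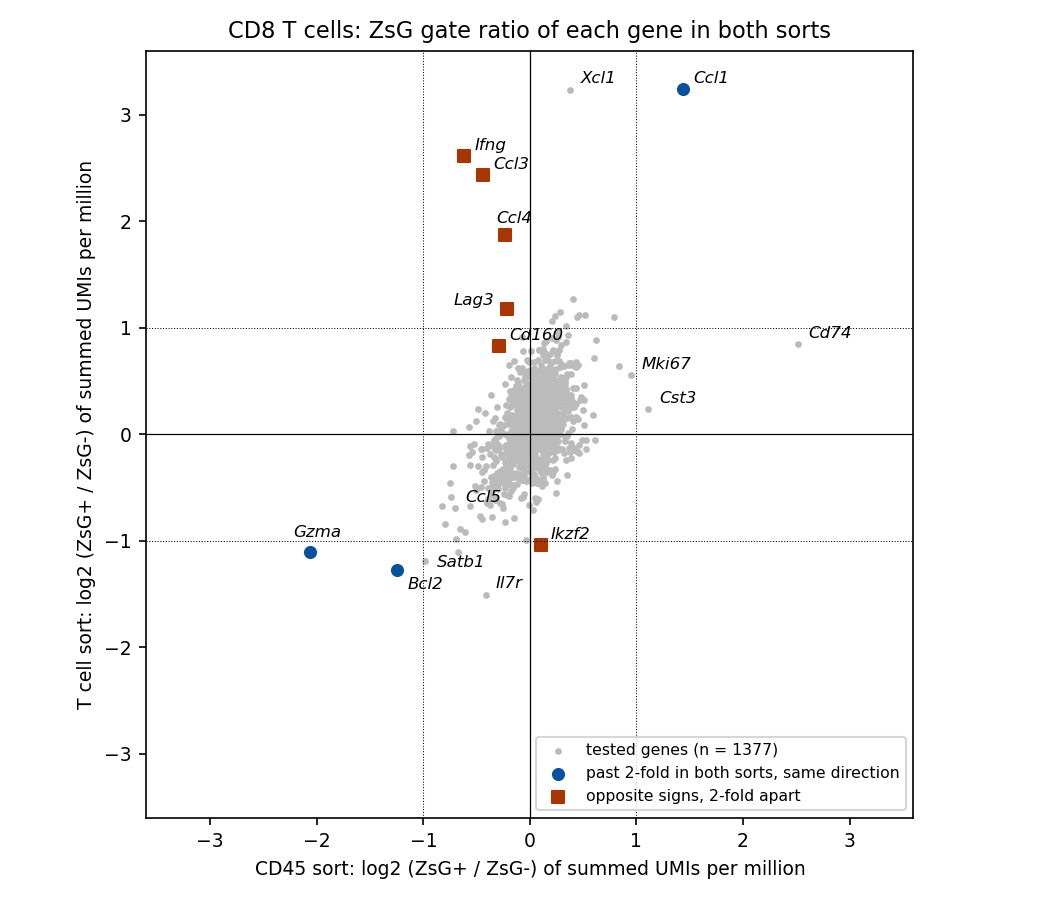
Log2 ratio of ZsG+ over ZsG- CPM of CD8 T cells in the CD45 sort (x) and the T cell sort (y), 1 point per tested gene (n = 1377). *Ccl1* lies at the upper right, *Gzma* and *Bcl2* at the lower left, and *Ifng*, *Ccl3* and *Ccl4* high on the y axis but left of 0 on the x axis.

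Over all tested genes the ratios of both sorts had a Pearson correlation of 0.46 and a Spearman correlation of 0.43, a description over 1377 genes of the same 4 libraries. In 920 genes (66.8%) the sign was the same, with 601 higher and 319 lower in both. A further 275 genes were higher in the T cell sort and lower in the CD45 sort, and 182 the other way round. The ratios spread more widely in the T cell sort (SD 0.37 against 0.23), and their medians were 0.03 in the CD45 sort and 0.12 in the T cell sort. The correlation was 0.17 in cells with no UMI of the proliferation genes *Mki67* and *Top2a*, where CD45 ZsG+ kept 23 cells. It was -0.55 in cells with no macrophage UMI, where that library kept 9 cells.

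*Ccl1* encodes a chemokine for CCR8, a receptor found on regulatory T cells. Its CPM (with exact Poisson interval) was 219 (212 to 227) in CD45 ZsG-, 593 (548 to 641) in CD45 ZsG+, 76.1 (66.6 to 86.6) in T cell ZsG- and 719 (694 to 746) in T cell ZsG+. Both ZsG+ libraries lay above both ZsG- libraries. The log2 ratio was 1.44 (1.31 to 1.56) in the CD45 sort and 3.24 (3.05 to 3.44) in the T cell sort, a difference of 1.80 (1.57 to 2.03). Few cells held most of it: the top 5% of cells held 86.9%, 71.1%, 100% and 87.7% of its UMIs, and 1 cell of T cell ZsG- had 155 of 231. The ratio of the CD45 sort was -0.02 (-2.08 to 1.21) in cells without *Mki67* or *Top2a*, and 0.21 with no limit on macrophage UMIs. Myeloid cells held 0 to 1.20 CPM of *Ccl1*.

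*Gzma* encodes granzyme A, a protease of cytotoxic granules. Its CPM was 228 (219.9 to 235) in CD45 ZsG-, 54.1 (41.2 to 69.8) in CD45 ZsG+, 845 (812 to 878) in T cell ZsG- and 393 (374 to 413) in T cell ZsG+. Each ZsG+ library lay below the ZsG- library of its sort, and the T cell sort lay above the CD45 sort in both gates. The log2 ratios were -2.06 (-2.47 to -1.70) and -1.10 (-1.19 to -1.01). CD45 ZsG+ held 59 UMIs of it. With each cell given the same weight (mean of per-cell CPM) the ratios were -1.51 and -0.83, the second short of 2-fold. Myeloid cells held 399.9, 31.98, 0 and 19.3 CPM, so those of CD45 ZsG- were above the CD8 cells there. That myeloid group also held 53.6 CPM of the NK cell genes *Ncr1* and *Klrb1c*. Which of its cells held *Gzma* was not tested.

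*Bcl2*, an inhibitor of apoptosis that is high in naive and memory T cells, was also lower in both ZsG+ libraries. Its CPM was 66.2 (62.2 to 70.5) in CD45 ZsG-, 27.5 (18.6 to 39.3) in CD45 ZsG+, 219 (202 to 236) in T cell ZsG- and 90.3 (81.3 to 100.03) in T cell ZsG+. T cell ZsG- alone was above 100 CPM, so *Bcl2* met the limit of a mean of 100 CPM only through that library. The log2 ratios were -1.24 (-1.84 to -0.75) and -1.28 (-1.46 to -1.09), with a difference of -0.03 (-0.58 to 0.52). The ratio of the CD45 sort rested on 30 UMIs in ZsG+ cells. It was -0.58 with each cell given the same weight, -0.14 with each cell thinned to 2000 UMIs, and -0.02 in cells without *Mki67* or *Top2a*. Just outside the 2-fold limit was *Satb1*, a chromatin organizer of immature and naive T cells, at 88.1, 43.99, 271 and 119 CPM, with ratios of -0.99 (-1.45 to -0.59) and -1.19 (-1.35 to -1.02).

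At a limit of 1.5-fold, 6 genes were higher in ZsG+ in both sorts (0.436%) and 11 lower in both (0.799%). In single sorts this limit was passed by 10 genes higher (0.726%) and 15 lower (1.09%) in the CD45 sort, and by 82 higher (5.95%) and 37 lower (2.69%) in the T cell sort. The 11 lower genes were *Gzma*, *Bcl2*, *Satb1*, *Ccl5*, *Klf2*, *Ifngr1*, *Emb*, *Gimap3*, *Zfp36l2*, *Neurl3* and *Vps37b*. *Ccl5*, a chemokine of effector and memory CD8 cells, was at 2259, 1383, 7221 and 4456 CPM, and its ratios of -0.71 (-0.78 to -0.63) and -0.70 (-0.72 to -0.67) were nearly the same in both sorts. *Ifngr1*, a chain of the interferon gamma receptor, had ratios of -0.65 and -0.89. *Klf2*, a factor that keeps T cells in circulation, had -0.70 and -0.98, with 193 to 575 CPM in myeloid cells against 31.2 to 253 in CD8 cells.

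The higher genes were *Ccl1*, *Top2a*, *Rrm1*, *Fabp5*, *Lgals3* and *Cd74*. *Cd74*, the MHC class II invariant chain, was at 51.4, 294, 47.4 and 85.7 CPM in CD8 cells and at 4349.7, 9241, 5369.5 and 7001 CPM in myeloid cells of the same libraries. CD45 ZsG+ was the highest CD8 level, and the ratios were 2.52 (2.32 to 2.71) and 0.85 (0.57 to 1.14). Single cells weighed heavily: 1 cell held 181 of 321 UMIs in CD45 ZsG+ and 1 cell held 119 of 144 in T cell ZsG-. Without the 5% of cells of each library with the highest CPM of *Cd74* the ratios were 3.28 and 4.16, so the size of the T cell ratio rested on those cells. T cell ZsG- then kept 0.717 CPM, where 1 UMI was worth 0.329 CPM in all its CD8 cells. The 4.16 is therefore set against a level near the floor. After thinning each cell to 2000 UMIs, *Cd74* was found in 3.05%, 26.5%, 1.08% and 5.04% of CD8 cells (20.9%, 83.8%, 5.65% and 15.04% without thinning) and in 59.1% to 96.4% of myeloid cells. *Fabp5*, a fatty acid carrier, was at 184, 317, 58.97 and 127 CPM in CD8 cells and 120.0, 936, 1835 and 1565 in myeloid cells. *Lgals3*, galectin-3, was at 157, 281, 202 and 315 CPM in CD8 cells and 1875, 3740.1, 4964 and 4128 in myeloid cells.

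Marker genes of macrophages and dendritic cells were also summed in the CD8 cells. Over 30 macrophage and monocyte markers, which include *Plac8* and *Ly6c2* that CD8 cells express, the sum was 1872, 2091, 2971 and 2666 CPM, with 1, 0, 1 and 0 of them at 0. Their median level in CD8 cells was 1.78%, 2.24%, 0.727% and 1.14% of that in the myeloid cells. Over 18 MHC class II and dendritic cell markers the sum was 602, 1370.2, 753 and 877 CPM, with 0, 5, 6 and 2 at 0. These markers include *Ccr7* and *Bst2*, which CD8 cells express. The part of macrophage or dendritic cell RNA in the ratios of *Cd74*, *Fabp5* and *Lgals3* was not tested.

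*Ifng*, the cytokine interferon gamma, had the largest disagreement between the sorts among the tested genes of opposite sign. Its CPM was 726 (712 to 739) in CD45 ZsG-, 472 (432 to 515) in CD45 ZsG+, 571 (545 to 599) in T cell ZsG- and 3489 (3432 to 3547) in T cell ZsG+. T cell ZsG+ was the highest by far, and the intervals of the first 3 libraries did not overlap each other either. The log2 ratios were -0.62 (-0.75 to -0.49) and 2.61 (2.54 to 2.68), a difference of 3.23 (3.08 to 3.38).

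*Ccl3* and *Ccl4*, neighboring genes on chromosome 11 for inflammatory chemokines, had the same pattern. *Ccl3* was at 855, 629.7, 436 and 2357 CPM, with ratios of -0.44 (-0.55 to -0.33) and 2.44 (2.35 to 2.52). *Ccl4* was at 1179, 1002, 969 and 3541 CPM, with ratios of -0.23 (-0.32 to -0.15) and 1.87 (1.81 to 1.93). With each cell given the same weight the CD45 ratios were 0.14 for *Ccl3* and 0.57 for *Ccl4*, no longer opposite in sign to the T cell sort. Myeloid cells also expressed both, at 137 to 682 and 600.2 to 2269 CPM. *Xcl1*, a chemokine for cross-presenting dendritic cells, was higher in ZsG+ in both sorts but by unequal amounts. Its level was 666, 866, 396 and 3728 CPM and its ratios were 0.38 (0.28 to 0.48) and 3.23 (3.15 to 3.32), so it passed 2-fold in the T cell sort alone. Myeloid cells held 0.817 to 34.4 CPM of it.

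*Lag3* and *Cd160*, which encode inhibitory receptors, disagreed by smaller amounts. *Lag3* was at 103, 88.9, 67.9 and 153 CPM, with ratios of -0.21 (-0.53 to 0.08) and 1.17 (0.95 to 1.41). *Cd160* was at 107, 87.1, 99.2 and 176 CPM, with ratios of -0.29 (-0.61 to 0.01) and 0.83 (0.63 to 1.03). In the CD45 sort both intervals included 0, so a difference between its gates was not detectable at this depth, while the differences between the sorts were 1.39 (1.01 to 1.76) and 1.12 (0.76 to 1.47). With each cell given the same weight, the ratios were -0.03 and 1.57 for *Lag3* and -0.10 and 0.77 for *Cd160*. *Lag3* then still had opposite signs over 2-fold apart but a mean under 100 CPM, so it was not among the tested genes, and *Cd160* was less than 2-fold apart. *Ikzf2* encodes Helios, a factor of regulatory and chronically stimulated T cells, and was at 168, 179.6, 289 and 140.3 CPM. Its ratio was 0.10 (-0.12 to 0.31) in the CD45 sort and -1.04 (-1.20 to -0.89) in the T cell sort, where the CPM of T cell ZsG- was the highest of the 4 libraries.

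**Figure D2:**
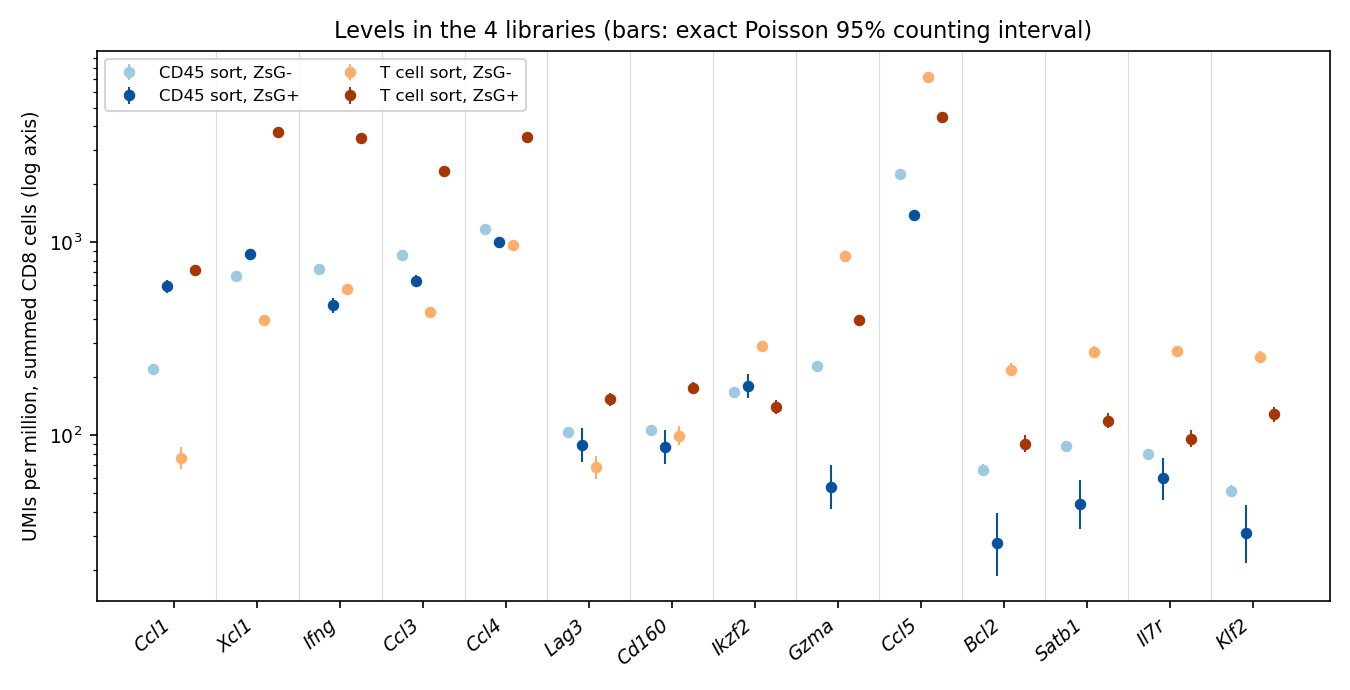
CPM (y, log axis) of 14 genes in the summed CD8 T cells of the 4 libraries, with exact Poisson 95% intervals. For *Ifng*, *Ccl3*, *Ccl4* and *Xcl1* the ZsG+ library of the T cell sort lies above the other 3, and for *Gzma*, *Ccl5*, *Bcl2*, *Satb1*, *Il7r* and *Klf2* each ZsG+ library lies below the ZsG- library of its own sort.

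Few cells carried the cytokine levels. The top 5% of cells held 66.8%, 44.9%, 89.9% and 88.1% of the *Ifng* UMIs, and the highest cell of T cell ZsG+ had 1538 of 14254. Without the 5% of cells of each library with the highest CPM of the gene, the ratios of *Ifng* were 0.16 and 2.90, and those of *Ccl3* were 0.31 and 4.66. The lower CPM of both genes in CD45 ZsG+ was thus not seen without these cells, while the higher CPM in T cell ZsG+ was. *Ccl4* kept its sign in both sorts, with -0.12 and 2.89, as did *Xcl1* with 0.71 and 3.94. For *Gzma* the ratios without such cells were -2.85 and -1.73, and for *Bcl2* they were -1.86 and -1.40, in the same directions as with them.

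**Figure D3:**
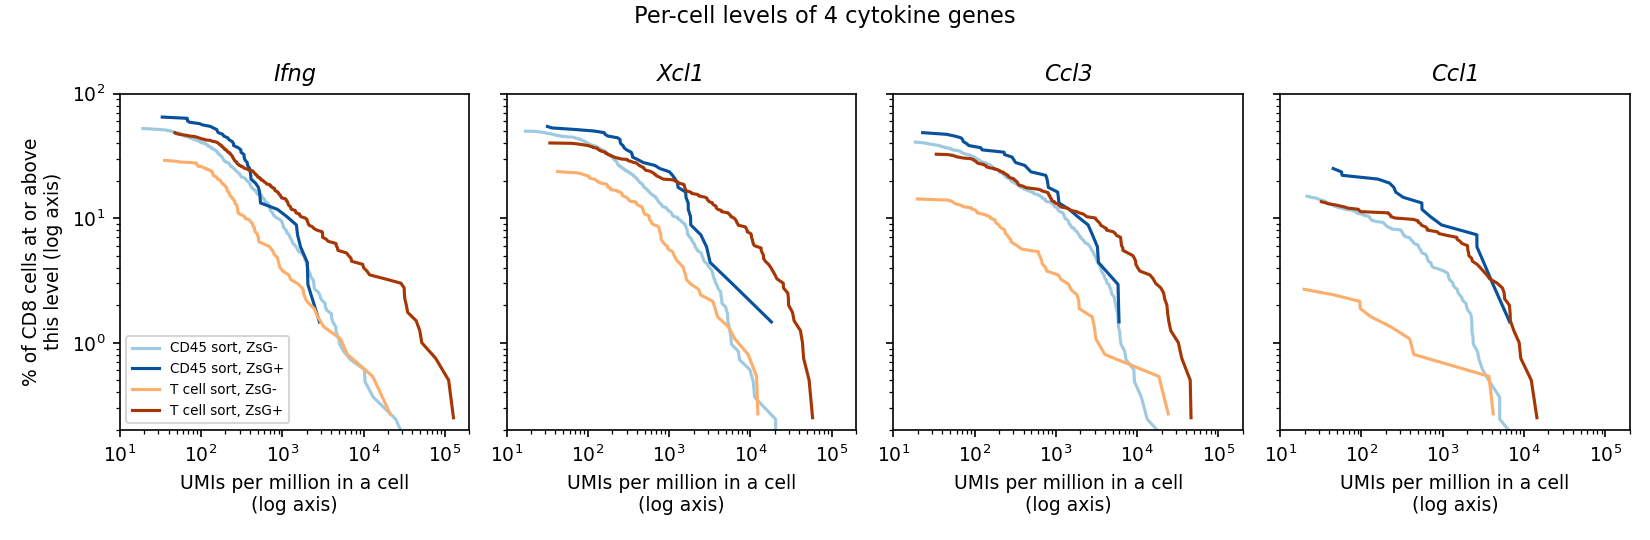
Percent of CD8 T cells (y, log axis) at or above a given CPM in the cell (x, log axis) for *Ifng*, *Xcl1*, *Ccl3* and *Ccl1*, 1 line per library, over cells with a UMI. The line of T cell ZsG+ reaches the highest CPM in all 4 panels, and that of T cell ZsG- starts from the lowest percent of cells.

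By the share of cells with a UMI, another library was the lowest for some genes. Each cell was thinned to 2000 UMIs, which left out 2 cells of T cell ZsG+ and no other CD8 cell. Intervals of shares rest on the cells of 1 library per gate and sort and do not measure the spread between mice. Those of CD45 ZsG+ rest on 68 cells and are the widest. *Ifng* was then found in 25% (22.1 to 28.1), 30.9% (20.2 to 43.3), 16.7% (13.02 to 20.9) and 29.2% (24.8 to 33.96) of cells with exact binomial intervals (52.3%, 64.7%, 29.03% and 48.4% without thinning). T cell ZsG- was the lowest, and the other 3 had overlapping intervals. The interval of T cell ZsG- also overlapped that of CD45 ZsG+, and not those of CD45 ZsG- and T cell ZsG+. In the CD45 sort the share and the CPM of *Ifng* went in opposite directions, so no order between its gates is read. Thinned myeloid cells, at median depths of 8612 to 12569 UMIs before thinning, had *Ifng* in 0% to 1.09%.

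After thinning, *Lag3* and *Pdcd1* had the same lowest library, *Cd69* did not, and *Cd160* had no clear lowest library. *Lag3* was found in 16.6%, 20.6%, 6.45% and 19.4% of thinned cells (55.6%, 55.9%, 18.3% and 46.6% unthinned), against 0% to 0.410% of myeloid cells. *Pdcd1*, the gene of PD-1, was found in 33.2%, 30.9%, 17.2% and 28.2% (67.4%, 72.1%, 32.3% and 53.6% unthinned), against 0% to 0.410% of myeloid cells. The *Pdcd1* interval of T cell ZsG- (13.5 to 21.4) overlapped that of CD45 ZsG+ (20.2 to 43.3). The *Lag3* intervals of these libraries did not overlap. *Cd160* was found in 17.2%, 10.3%, 13.4% and 19.4% (57.6%, 51.5%, 31.7% and 47.1% unthinned, and 0% to 0.725% of myeloid cells). It was lowest in CD45 ZsG+ after thinning and in T cell ZsG- without it. The thinned interval of CD45 ZsG+ (4.24 to 20.1) overlapped those of all other libraries. *Cd69*, an early activation marker, was found in 14.8%, 16.2%, 28.8% and 32.2% (47.7%, 47.1%, 57.5% and 60.4% unthinned, and 8.22% to 19.2% of myeloid cells), higher in both gates of the T cell sort. *Ikzf2* was found in 30% (26.9 to 33.3), 26.5% (16.5 to 38.6), 22.3% (18.2 to 26.9) and 17.4% (13.8 to 21.5) (58.3%, 45.6%, 33.9% and 33.1% unthinned, and 0.965% to 2.54% of myeloid cells). Its intervals overlapped between the gates of both sorts, and T cell ZsG- was the highest library by CPM but not by share. *Ccl3* was found in 16.7% to 42.5% of myeloid cells, a range that holds or exceeds its shares of 21.7%, 20.6%, 7.80% and 21.2% in CD8 cells (40.7%, 48.5%, 14.2% and 32.6% unthinned), so these are not read. *Ccl1* was found in 7.07% (5.41 to 9.05), 16.2% (8.36 to 27.1), 0.806% (0.167 to 2.34) and 10.6% (7.73 to 14.03) (15%, 25%, 2.69% and 13.5% unthinned, and 0% to 0.725% of myeloid cells), with intervals that overlapped between the gates of the CD45 sort and not between those of the T cell sort. *Gzma* was found in 17.1% (14.6 to 19.8), 4.41% (0.919 to 12.4), 20.7% (16.7 to 25.2) and 16.1% (12.6 to 20.1) (37.3%, 16.2%, 30.6% and 24.1% unthinned, and 0% to 11.2% of myeloid cells), with intervals that overlapped in the T cell sort. *Xcl1* was found in 25.2% (22.3 to 28.4), 41.2% (29.4 to 53.8), 13.7% (10.4 to 17.6) and 29.2% (24.8 to 34.0) (49.9%, 54.4%, 23.7% and 40.1% unthinned, and 0% to 3.62% of myeloid cells). Its share was higher in ZsG+ of both sorts, and the intervals of the gates did not overlap in either sort.

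**Figure D4:**
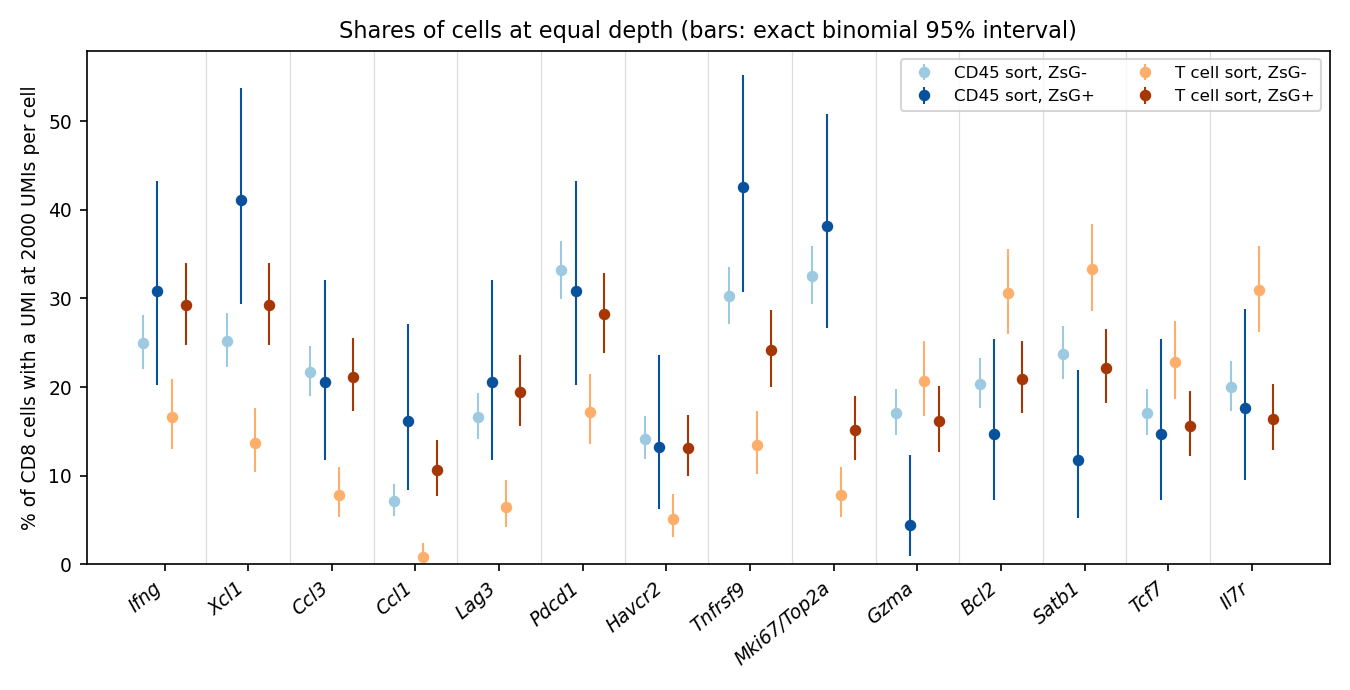
Percent of CD8 T cells with a UMI (y) after thinning to 2000 UMIs per cell, with exact binomial 95% intervals, for 13 genes and 1 gene pair in the 4 libraries. For *Ifng*, *Lag3* and *Pdcd1* the ZsG- library of the T cell sort is the lowest, and the intervals of the other 3 overlap. For *Ifng* and *Pdcd1* the interval of that lowest library also overlaps that of the ZsG+ library of the CD45 sort.

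The genes were also grouped by function. Of all 1377 tested genes, 601 were higher and 319 lower in ZsG+ in both sorts. Of 20 genes of naive, precursor and memory cells 6 were tested, with median ratios of -0.56 and -1.08. Of these, 5 were lower in ZsG+ in both sorts, and *Ccr7*, a lymph node homing receptor, had 0.19 and 0.41. *Il7r*, the receptor for the survival cytokine IL-7, was at 80.1, 59.6, 272 and 95.7 CPM, with ratios of -0.42 (-0.81 to -0.07) and -1.50 (-1.68 to -1.33). Below the limit of 100 CPM, *Tcf7*, the factor of the precursor state, had ratios of -0.64 (-1.21 to -0.16) and -1.02 (-1.26 to -0.79). In cells without *Mki67* or *Top2a* the median of the CD45 sort was 0.09.

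The 10 tested of 19 genes of inhibitory receptors and exhaustion had medians of -0.13 and 0.50, with 6 of them higher in the T cell sort and lower in the CD45 sort. Of all 1377 tested genes, 275 had this pattern. *Pdcd1* was at 296, 265, 179 and 226 CPM, with ratios of -0.16 (-0.34 to 0.01) and 0.34 (0.18 to 0.49). *Ctla4*, another inhibitory receptor, had ratios of -0.14 (-0.38 to 0.10) and 0.33 (0.15 to 0.52). *Rgs16*, a regulator of G protein signaling, was higher in both, with 0.44 and 1.10. Below 100 CPM on average, *Havcr2*, the gene of TIM-3, had -0.11 (-0.42 to 0.17) and 0.47 (0.20 to 0.75), *Tox*, a factor of exhaustion, -0.34 (-0.63 to -0.08) and 0.31 (0.05 to 0.58), and *Tigit* was at 1.83 to 3.95 CPM. The median of this list in the CD45 sort was 0.20 with thinned cells. The 6 tested of 12 cytokines and chemokines had medians of -0.34 and 2.52, and in the CD45 sort 0.36 with each cell given the same weight.

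Among the 10 tested of 17 genes of granzymes, perforin and killing, *Gzma* was the 1 member past 2-fold in either sort, and the medians were -0.08 and 0.13. *Gzmb*, granzyme B, was at 1869.8, 1851, 1640.0 and 1844 CPM, with ratios of -0.01 (-0.08 to 0.05) and 0.17 (0.12 to 0.22). *Prf1*, perforin, had ratios of -0.05 (-0.18 to 0.07) and 0.59 (0.45 to 0.73), and *Nkg7*, a granule protein, -0.16 (-0.24 to -0.08) and 0.30 (0.25 to 0.35). *Gzmk*, granzyme K, was at 40.3 to 85.99 CPM, with ratios of -0.19 (-0.68 to 0.23) and -0.10 (-0.34 to 0.14).

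Of 20 tested cell cycle genes 19 were higher in ZsG+ in both sorts, against 601 of all 1377 tested genes. The medians of the list were 0.21 and 0.65. *Mki67* was at 234, 451, 68.9 and 101 CPM, with ratios of 0.95 (0.81 to 1.08) and 0.55 (0.31 to 0.80). *Top2a*, a topoisomerase of dividing cells, was at 356, 541, 103 and 169.9 CPM, with 0.61 (0.48 to 0.73) and 0.71 (0.52 to 0.91). The CD45 sort lay above the T cell sort in both gates. After thinning, 32.6% (29.4 to 35.9), 38.2% (26.7 to 50.8), 7.80% (5.28 to 11) and 15.1% (11.7 to 19.02) of cells had a UMI of either gene (53.05%, 66.2%, 18.01% and 29.8% unthinned), against 2.17% to 7.97% of myeloid cells. The intervals of the gates overlapped in the CD45 sort, where ZsG+ had 68 cells, and did not in the T cell sort. They do not measure a difference between the sorts. T cell ZsG- lay within the range of the myeloid cells.

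Some lists of growth and metabolism genes were higher in ZsG+ cells and others were near the median of all genes. All 23 tested Myc targets and ribosome biogenesis genes were higher in the T cell sort and 21 of them in both sorts, with medians of 0.12 and 0.46. Of all 1377 tested genes, 876 were higher in the T cell sort and 601 in both sorts. *Srm*, spermidine synthase, had ratios of 0.46 (0.21 to 0.70) and 1.12 (0.86 to 1.39), and *Ncl*, nucleolin, 0.31 (0.25 to 0.37) and 0.48 (0.42 to 0.54). Of 10 tested glycolysis genes 9 were higher in both, with medians of 0.15 and 0.48, among them *Pkm*, pyruvate kinase, with 0.35 and 0.57. Of 10 heat shock and chaperone genes 9 were higher in both, with medians of 0.16 and 0.37. *Tfrc*, the transferrin receptor, had ratios of 0.41 (0.19 to 0.61) and 1.27 (1.01 to 1.55). The 15 proteasome genes had medians of 0.06 and 0.29 and the 38 nuclear genes of oxidative phosphorylation 0.04 and 0.19, of which the CD45 values were -0.01 and -0.03 with TMM factors. In the 9 CD45 ZsG+ cells with no macrophage UMI, the cell cycle, Myc target and glycolysis medians were -0.83, -0.67 and -0.81, so their direction in the CD45 sort was not kept there.

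All 8 tested MHC class I genes were lower in ZsG+ in both sorts by small amounts, with medians of -0.22 and -0.13. Of all 1377 tested genes, 319 were lower in both sorts. *H2-D1* had ratios of -0.32 (-0.40 to -0.24) and -0.11 (-0.16 to -0.06). Under other settings and selections of cells the list medians ran from -0.29 to 0.30 in the CD45 sort and from -0.22 to 0.097 in the T cell sort. Their direction was thus not kept in all of them. Of 15 tested interferon-induced genes 10 were lower in both, with medians of -0.06 and -0.20. *Isg15*, a ubiquitin-like protein, was at 85.8, 83.4, 411 and 207 CPM in CD8 cells and 723 to 1368 in myeloid cells, with ratios of -0.03 (-0.36 to 0.27) and -0.99 (-1.12 to -0.87). T cell ZsG- was the highest of the 4 CD8 levels. The 13 TCR and immediate early genes had medians of -0.03 and 0.04, with 5 of them higher and 6 lower in both sorts. Ratios were 0.50 and 0.23 for *Dusp1*, -0.04 and 0.54 for *Rel*, -0.74 and -0.59 for *Zfp36l2*, and -0.51 and -0.52 for *Btg1*. *Nr4a1*, a gene that TCR signals induce, had 0.27 and 0.27.

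**Figure D5:**
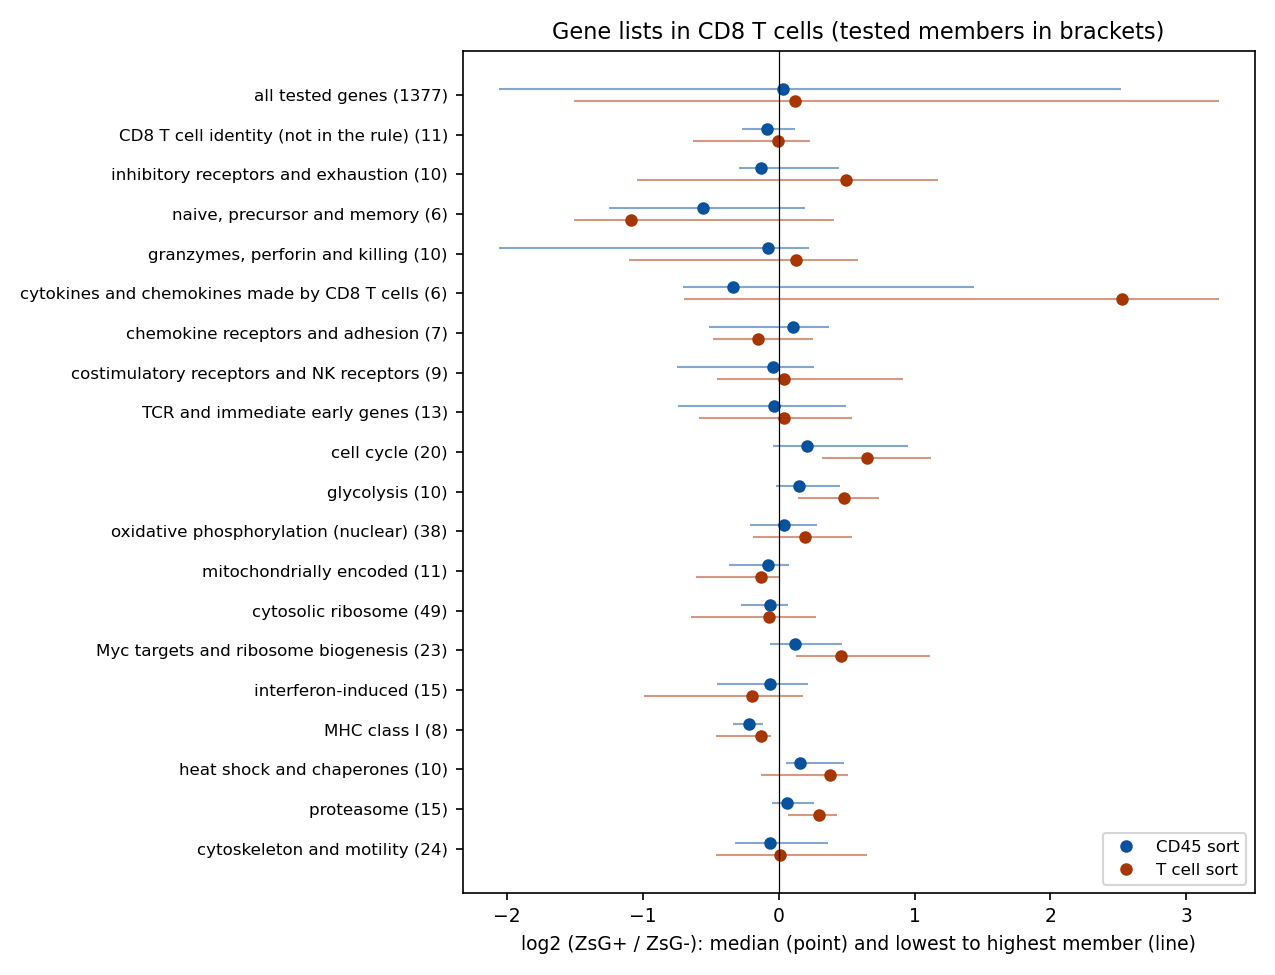
Median (point) and lowest to highest member (line) of the log2 ratios of ZsG+ over ZsG- (x) for gene lists with at least 6 tested members (y, number in brackets) in the CD45 sort and the T cell sort. The cell cycle, Myc target and glycolysis medians lie above 0 in both sorts and the naive, precursor and memory medians below 0, while the cytokine medians are -0.34 and 2.52.

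The remaining lists with at least 7 tested members had smaller medians. The 11 CD8 identity genes had -0.08 and -0.01, the 24 cytoskeleton genes -0.06 and 0.01, the 9 costimulatory and NK receptors -0.04 and 0.04, the 7 chemokine receptors and adhesion genes 0.11 and -0.15, the 49 cytosolic ribosomal proteins -0.06 and -0.07 and the 11 mitochondrially encoded genes -0.08 and -0.13. *Icos*, a costimulatory receptor, had ratios of -0.75 and -0.45, and *Tnfrsf9*, the gene of 4-1BB, 0.14 (-0.02 to 0.29) and 0.86 (0.72 to 1.00). *Cxcr6*, a chemokine receptor of resident T cells, had -0.31 (-0.53 to -0.11) and 0.25 (0.10 to 0.41), and *Cd69* 0.37 (0.02 to 0.69) and -0.13 (-0.28 to 0.02). The 15 melanoma genes, none of them tested, summed to 4.68, 6.42, 6.92 and 22.03 CPM. Their Poisson intervals overlapped between the gates of the CD45 sort (3.65 to 5.92 and 2.58 to 13.2) and not between those of the T cell sort (4.28 to 10.6 from 21 UMIs and 17.7 to 27.1 from 90). In each library *Pmel*, *Mlana*, *Tyrp1* and *Dct* together were higher in myeloid cells than in CD8 cells. The origin of this RNA in CD8 cells was not tested. *Pmel*, a pigment cell gene, had 3, 0, 4 and 12 UMIs, too few to compare the gates on its own. Markers of other cells summed to 638, 655, 269.8 and 296 CPM for 9 NK cell genes, 480.4, 517, 282 and 459 for 8 CD4 and regulatory T cell genes, 55.5, 39.4, 81.7 and 76.9 for 6 B cell genes and 0.334, 5.50, 1.98 and 4.65 for 7 erythroid and platelet genes. The NK list includes *Gzmc*, and the CD4 and regulatory T cell list *Ctla4* and *Tnfrsf4*. Each of these was a tested gene in CD8 cells, so these sums do not measure RNA of other cells alone.

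The cells were also split by *Pdcd1*, without thinning. Whether a cell had a UMI thus depended in part on its depth. Median UMIs per cell were 13686.5 and 14637 in the CD45 sort and 6593 and 7342 in the T cell sort. The same holds for the cells without *Mki67* or *Top2a*. Among cells with a *Pdcd1* UMI (553, 49, 120 and 214 cells), *Ifng* was at 825, 503, 803 and 4633 CPM, with ratios of -0.71 (-0.85 to -0.58) and 2.53 (2.44 to 2.62). *Gzma* had -1.63 (-2.06 to -1.26) and -1.14 (-1.31 to -0.97), and *Ccl1* 1.40 (1.27 to 1.52) and 2.50 (2.31 to 2.71), in the same directions as in all cells. *Lag3* had -0.29 (-0.61 to 0.01) and 0.44 (0.20 to 0.69). Some other genes took the opposite sign in the T cell sort from that in all cells. *Gzmb* had -0.21 (-0.27 to -0.15) there and *Ctla4* -0.26 (-0.46 to -0.05), both below 0. *Mki67* had -0.21 (-0.46 to 0.04), *Havcr2* -0.11 (-0.39 to 0.18), *Cd74* -0.19 (-0.49 to 0.13), *Cxcr6* -0.09 (-0.27 to 0.10) and *Tox* -0.02 (-0.32 to 0.29), with intervals that included 0. Among cells without a *Pdcd1* UMI (267, 19, 252 and 185 cells), the *Ifng* ratios were 1.74 (0.81 to 2.50) and 0.87 (0.72 to 1.02), so that the sign in the CD45 sort was opposite to that in all cells, on 19 ZsG+ cells. Across libraries, the levels of the tested genes correlated least between CD45 ZsG+ and T cell ZsG- (Pearson 0.86 on log2(CPM + 1), n = 1377 genes) and most between the gates of the CD45 sort (0.99).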

How the data were processed

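CD8 T cells of 4 libraries were compared, 1 per ZsG gate and sort. The authors deposited UMI counts per gene and cell barcode from 10x 3′ libraries, made with Cell Ranger 6.1.2 on mm10 per the submitters' processing notes, although the CD45 matrix itself carries version 7.0.0. The paper states that samples were combined with the aggr pipeline of Cell Ranger. The sources used here do not say whether depth was evened between libraries in that step. The barcode suffix gave the gate. Cells of the CD45 sort had 1000 to 5999 genes and under 10% mitochondrial UMIs, those of the T cell sort 50 to 5999 genes and under 15%. Doublets were not called and were kept. The matrices list 32285 and 31053 genes, and 30374 shared genes, with 1 ID kept per symbol, were used.

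UMIs were summed per library and scaled to CPM, with 0.5 UMI added to each sum for log2 ratios. The 8 genes of the selection were left out of the 1377 tested. Sums have exact Poisson, ratios exact conditional and shares Clopper-Pearson 95% intervals, and differences of ratios a normal approximation on the log scale. Named genes were up to 12 past 2-fold in both sorts per direction, up to 8 of opposite sign and 2-fold apart per direction, a set of 23 T cell genes (1 is not reported here), and up to 4 per list with the largest mean ratio. Genes past 1.5-fold in both sorts, *Tfrc* and *Nr4a1* were named after their values were seen. The members, lists and comparisons were chosen with earlier results of these data known. Alternatives were other CPM limits, folds and pseudocounts, TMM factors (edgeR 4.0.16 in R 4.3.3), totals that omit mitochondrial and ribosomal genes, equal weight per cell, thinning, and other selections of cells. Promoter sequences are from RefSeq (GRCm38.p6). The steps ran in Python 3.11.15 with scipy 1.17.1 and were tested on simulated data.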

Additional observations from a re-analysis of the deposited data

How the results depend on the processing

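No paired analysis was possible because each gate and sort had 1 library and no test was made. Leaving out the 5% of cells with the most UMIs, and setting no limit on macrophage UMIs, were chosen after the data were seen.

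The 1 gene at least 2-fold higher in both sorts became 3 at a mean of 50 CPM, with each cell given the same weight and in cells without *Mki67* or *Top2a*, 2 with thinned cells and in cells without *Pdcd1*, 6 at 1.5-fold and 14 with no macrophage limit. *Ccl1* was not among these genes without *Mki67* or *Top2a*, without *Pdcd1* or with no macrophage limit. With no macrophage UMI the 1 gene was *Cd74* and not *Ccl1*. The 2 genes lower in both became 5 at 50 CPM, 11 at 1.5-fold, 1 at 200 CPM, in cells without *Mki67* or *Top2a*, in cells with *Pdcd1* and without genes higher in myeloid cells, and 0 with equal weight per cell, thinned cells, no macrophage UMI or no *Pdcd1*. The 6 disagreeing genes became 13 at 50 CPM, 3 at 200 CPM, 29 with thinned cells, 372 with no macrophage UMI (9 cells of CD45 ZsG+), 43 without *Mki67* or *Top2a*, 31 without *Pdcd1*, 48 with no macrophage limit, and 0 when 2-fold was required in opposite directions in both sorts. Several of these sets held mostly other genes, while that at 50 CPM held all 6: of the 6, 1 (*Ifng*) was among the 29, 3 among the 43, 0 among the 31 and 3 among the 48, and with equal weight per cell 2 (*Ifng*, *Ikzf2*) were among 9, *Lag3* having a mean under 100 CPM there. The correlation of 0.46 was 0.31 with thinned cells, -0.55 (Spearman -0.58) with no macrophage UMI, 0.17 without *Mki67* or *Top2a*, 0.25 with *Pdcd1*, 0.33 without *Pdcd1* and 0.30 with no macrophage limit.

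With no macrophage UMI the CD45 ratios took the other sign for *Ccl1* (-4.50, from 0 UMIs in ZsG+ cells, so the value depends on the added 0.5), *Bcl2* (1.89) and the naive, precursor and memory median (1.86). Without *Mki67* or *Top2a* so did *Ccl1* (-0.022), that median (0.085), the cytokine median (0.21) and, in the T cell sort, *Rrm2* (-0.65). Without *Pdcd1* so did *Ccl1* (-2.49, also from 0 UMIs), the cytokine median (0.77) and *Pmel* in the T cell sort (-0.34, on too few UMIs to read). The cytokine median of the CD45 sort was also above 0 with equal weight per cell (0.36) and thinned cells (0.49). In cells with *Pdcd1* the T cell medians of MHC class II and dendritic cell markers (-0.19) and of CD4 and regulatory T cell markers (-0.010) lay below 0. These sign changes are listed only for gene ratios past 2-fold, and list medians near 0 were left out. Smaller CD45 ratios also took the other sign under some alternative. They reached 1.12 for *Satb1*, 2.09 for *Klf2* and 1.64 for *Emb*, and -3.64 for *Top2a* and -1.08 for *Rrm1*. Of the 11 genes lower in both sorts at 1.5-fold, only *Gzma* kept a CD45 ratio below 0 under every alternative. The causes were not tested. Of 3440 gene ratios under the alternatives 2503 stayed within the interval of the reported value, 931 left it and 6 of those past 2-fold took the other sign. The 68 cells of CD45 ZsG+ limit every ratio of that sort.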
